A study of Mus musculus with 10 samples.

Results

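The Wnt and β-catenin pathway was followed here through 41 genes, fixed as a list of names in the GRCm38 annotation and not by any measured value. All 41 were found, among 19235 protein-coding genes on the chromosomes covered by the peak lists. The list holds 26 genes of ligands and receptors, counting with them the secretion factor Wls and the secreted inhibitor Dkk1, and 15 genes of intracellular components. A gene was counted as having a gene-end peak when a listed peak overlapped the 1 kb on either side of one of its ends, and as having a gene-body peak only when all its peaks lay further inside. Of the 41, the 6 genes Lrp6, Wnt2, Wnt5b, Wnt7a, Wnt16 and Tcf7l1 lie on chromosome 6, which holds most SETα overexpression peaks and is marked throughout.

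SET is a histone-binding protein and inhibitor of the phosphatase PP2A that is made as the isoforms SETα and SETβ. Mouse embryonic stem cells of KH2 lines expressed an HA-tagged isoform from a doxycycline-inducible transgene (1 µg/ml for 24 h), and chromatin crosslinked with DSG and then formaldehyde was precipitated with an HA antibody. In the groups labelled SET KO SETa addback and SET KO SETb addback the lines carry a SET knockout. For the groups labelled SETa overexpression and SETb overexpression the labels name no knockout. Each group had 2 replicates and was a line of its own, so line and group cannot be told apart, and whether replicates were separate cultures is not given, so any p-value measures only the spread between these samples. The cells were grown on feeder fibroblasts that were removed before harvest. Of 10 samples, 2 were SET KO cells left without doxycycline, and these are not analysed here. No count below therefore has a background from cells without the tagged protein beside it. Peak lists carry no measure of cell identity, and the labelled cell type was not checked.

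In the canonical pathway, secreted Wnt ligands bind Frizzled receptors and the co-receptors Lrp5 and Lrp6 at the cell surface. Without a ligand, a destruction complex of Axin, Apc, Gsk3 kinases and casein kinase 1α marks β-catenin for degradation through the ubiquitin ligase subunit Btrc. With a ligand, Dishevelled proteins inactivate that complex, and β-catenin enters the nucleus and binds TCF/LEF factors with the co-activators Bcl9 and Pygo2. In mouse embryonic stem cells the pathway is known for supporting self-renewal, in part by relieving repression by Tcf7l1.

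The peak lists differed widely in length. The SETα addback lists held 22176 and 15701 peaks and the SETβ addback lists 2518 and 9768. The SETα overexpression lists held 4807 and 7675, of which 69.4% and 62.2% lay in the chromosome 6 segment from 118 to 136 Mb, and the SETβ overexpression lists held 1343 and 2869. The authors also deposited, for each group, a list of peaks found reproducibly in the replicates by irreproducible discovery rate (IDR). These IDR lists are short, with 530 (SETα) and 485 (SETβ) peaks in addback and 127 (SETα) and 101 (SETβ) in overexpression. Read totals were not used here, so the depth behind each list is unknown.

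Promoters of the 5 members with a peak at the gene start in the most libraries, addback and overexpression together, are shown first. Wnt5b had 5 such libraries, counting both SETα overexpression lists, and 3 in addback alone. Ties were broken by the strongest peak. RefSeq's table for GRCm38.p6 gave a promoter of 300 bases, 250 before to 50 after a listed start, for 29 of the 41 members. Of several listed starts, the one nearest the strongest peak was taken. They lie at chr6:119544298-119544597 on the minus strand (Wnt5b), chr3:89429964-89430263 on the plus strand (Pygo2), chr9:120933150-120933449 on the plus strand (Ctnnb1), chr7:89404116-89404415 on the plus strand (Fzd4) and chr5:128600856-128601155 on the plus strand (Fzd10). Capitals mark matches to the GC box GGGCGG and the ETS core CCGGAA on either strand, and GC box matches may overlap each other.
Pygo2: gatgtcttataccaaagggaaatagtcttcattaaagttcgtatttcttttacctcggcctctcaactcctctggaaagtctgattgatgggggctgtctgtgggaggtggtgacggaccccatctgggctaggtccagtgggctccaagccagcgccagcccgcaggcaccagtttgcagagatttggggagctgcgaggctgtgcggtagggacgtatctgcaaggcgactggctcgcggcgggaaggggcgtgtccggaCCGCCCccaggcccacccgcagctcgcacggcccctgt
Ctnnb1: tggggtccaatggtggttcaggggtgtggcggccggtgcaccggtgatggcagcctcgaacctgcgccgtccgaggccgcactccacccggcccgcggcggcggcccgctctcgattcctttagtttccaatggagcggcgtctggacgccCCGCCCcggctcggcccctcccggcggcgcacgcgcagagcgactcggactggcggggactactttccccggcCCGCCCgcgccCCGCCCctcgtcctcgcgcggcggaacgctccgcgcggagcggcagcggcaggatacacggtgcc
Wnt5b: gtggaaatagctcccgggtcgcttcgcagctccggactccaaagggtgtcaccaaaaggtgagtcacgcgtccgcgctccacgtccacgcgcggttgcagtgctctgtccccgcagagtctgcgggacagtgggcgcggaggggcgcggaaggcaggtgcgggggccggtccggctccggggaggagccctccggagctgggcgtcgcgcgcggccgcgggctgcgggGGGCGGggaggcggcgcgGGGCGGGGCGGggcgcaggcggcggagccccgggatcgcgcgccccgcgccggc
Fzd4: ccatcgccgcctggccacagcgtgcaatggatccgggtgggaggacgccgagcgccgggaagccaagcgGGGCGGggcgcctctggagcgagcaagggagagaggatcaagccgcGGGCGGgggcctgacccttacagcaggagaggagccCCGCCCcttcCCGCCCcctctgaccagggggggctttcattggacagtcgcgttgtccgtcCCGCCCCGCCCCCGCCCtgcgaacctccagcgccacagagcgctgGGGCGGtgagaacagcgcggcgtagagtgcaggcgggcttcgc
Fzd10: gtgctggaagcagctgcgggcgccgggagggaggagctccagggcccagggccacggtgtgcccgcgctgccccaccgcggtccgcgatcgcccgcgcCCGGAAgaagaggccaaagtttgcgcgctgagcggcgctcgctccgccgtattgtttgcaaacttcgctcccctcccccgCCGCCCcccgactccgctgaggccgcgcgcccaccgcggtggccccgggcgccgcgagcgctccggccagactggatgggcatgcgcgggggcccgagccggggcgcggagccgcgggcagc

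The 5 promoters held 18 (Pygo2), 46 (Ctnnb1), 47 (Wnt5b), 32 (Fzd4) and 45 (Fzd10) CpG dinucleotides. GC boxes were found 1, 3, 3, 8 and 1 times in the same order, and 1 ETS core in Fzd10. Of all 32851 promoters in the table, 35.7% held the GC box and 14.9% the ETS core. The TCF/LEF letters CTTTGAT or CTTTGAA, found in 8.65% of the table, were in none of the 5, nor was the TATA motif TATAAA (13.6%). A match is a description of letters only. A start peak need not touch the promoter shown. At Wnt5b, Fzd4 and Fzd10 only a peak of SETα addback replicate 2 did. The strongest start peaks of the addback libraries did not all overlap at Fzd4 and Fzd10, where their summits spanned 1134 and 1622 bp.

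SET was listed at the gene ends of most of the 41 genes in SETα addback cells, of a smaller number in SETβ addback cells and of at most 2 in any overexpression library. In the SETα addback replicates, 24 and 29 of the 41 members had a gene-end peak (26.5 ± 3.54, SD, n = 2), or 58.5% and 70.7%. In those of SETβ addback, 6 and 15 had one (10.5 ± 6.36, SD, n = 2), or 14.6% and 36.6%. With SETα overexpression it was 2 in each replicate, and with SETβ overexpression 0 and 1. Of all protein-coding genes, 34.3% and 31.8% had a gene-end peak in the SETα addback lists, 8.41% and 18.4% in the SETβ addback lists, 0.983% and 1.9% with SETα overexpression and 0.338% and 1.85% with SETβ overexpression. The members' share was thus above that of all genes in each of the 4 addback lists. No test was made over the members, since they were chosen with earlier results of these data known.

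**Figure D1:**
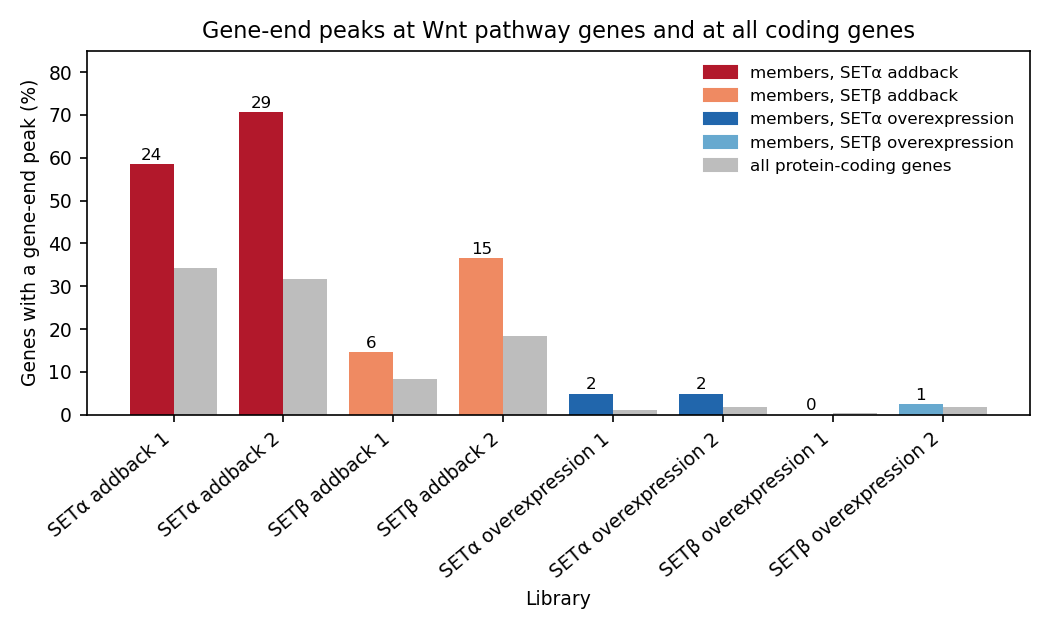
Share of genes with a gene-end peak (y axis, %) in each of the 8 libraries (x axis), for the 41 pathway genes (coloured bars, with the number of genes above) and for all 19235 protein-coding genes (grey bars). The coloured bars reach 58.5% and 70.7% with SETα addback and stay at or below 4.88% with overexpression.

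Over the 4 addback libraries together, 34 of 41 members had a gene-end peak at least once, against 47.5% of all protein-coding genes. In at least 3 of the libraries it was 11 members, or 26.8%, against 12.4%, and in all 4 it was 2 members, Ctnnb1 and Pygo2, or 4.88%, against 5.15%. Both of these lacked a peak in each overexpression library, a pattern held by 4.7% of all genes. An exact permutation test of each gene that moved the background labels within each isoform had 36 arrangements and could not give a two-sided p below 0.0556, and none of 9291 genes tested reached an adjusted p under 0.05 or an unadjusted p under 0.05. The median member had a gene-end peak in 2 addback libraries and the median protein-coding gene in 0. Only Wnt2 and Wnt16, ligand genes on chromosome 6 outside the segment, had no peak in any of the 8 libraries, 2 of 41 against 39.6% of all genes.

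The members' share depended on how strong a peak had to be. The −log10 p, q and fold enrichment over local background used from here on are the authors' own values for each peak, which depend on a library's depth and are no measure of amount across libraries. With a q of at most 0.05, 17 and 21 members had a gene-end peak in SETα addback (22% and 24.2% of all genes) and 4 and 2 in SETβ addback (4.85% and 7.39%). At a −log10 q of at least 5 it was 2 and 4 members with SETα addback, against 3.88% and 4.52% of all genes, and 0 in both SETβ addback lists, against 2.69% and 2.62%. The 5 genes at that level were Pygo2 in both SETα replicates, Lrp6 in replicate 1, and Wnt5b, Wnt6 and Wls in replicate 2. Among the strongest 1343 peaks of each library, the size of the smallest list, 3 and 4 members had a gene-end peak in the SETα addback lists and 4 and 1 in those of SETβ. All genes then gave 4.65% and 5.77% with SETα and 5.39% and 4.96% with SETβ, so the members' shares of 7.32%, 9.76%, 9.76% and 2.44% lay on both sides of the background.

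The promoters of the pathway are rich in CpG, which was measured beside the peaks. For this count each gene was given the listed start nearest its outer end. The median member promoter held 31 CpG (range 6 to 53, n = 29), against 13 for all 15496 protein-coding genes with a listed promoter, and 24 of the 29 held at least 15, against 46.3%. Among genes with at least 15 CpG, a threshold chosen after the data were seen, gene-end peaks were at 55.6% and 53.5% of all such genes with SETα addback and at 14.7% and 30.8% with SETβ addback. The 24 members gave 58.3%, 83.3%, 16.7% and 45.8% in the same libraries. The members' share was thus close to that of CpG-rich genes at large in replicate 1 of both isoforms, and above it in replicate 2 of both. The part of CpG content in the result was not tested. The 17 members with a peak at the start in at least 2 addback libraries had a median of 34 CpG, and the other 12 a median of 26.5.

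At the 29 members whose strand the table gives, gene-end peaks lay mainly at the start, which here means the outer end of the gene on the side of its 5′ end. A peak there was listed for 15 and 20 in the SETα addback lists and 4 and 12 in those of SETβ. At the far end it was 4 and 7 with SETα and 0 in both SETβ lists. Of all protein-coding genes with a strand, 31.9% and 30.1% had a start peak with SETα and 5.83% and 4.57% a far-end peak. With SETβ addback these shares were 8.07% and 17% at the start and 0.6% and 2.25% at the far end. Where several libraries hit 1 gene, positions often differed. Of 27 members with a gene-end peak in at least 2 addback libraries, the strongest peaks overlapped across all of the gene's libraries in 11. The median span of the summits over the 27 was 389 bp. Neither value was computed for all protein-coding genes, so it is unknown whether the members differ from them in this.

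**Figure D2:**
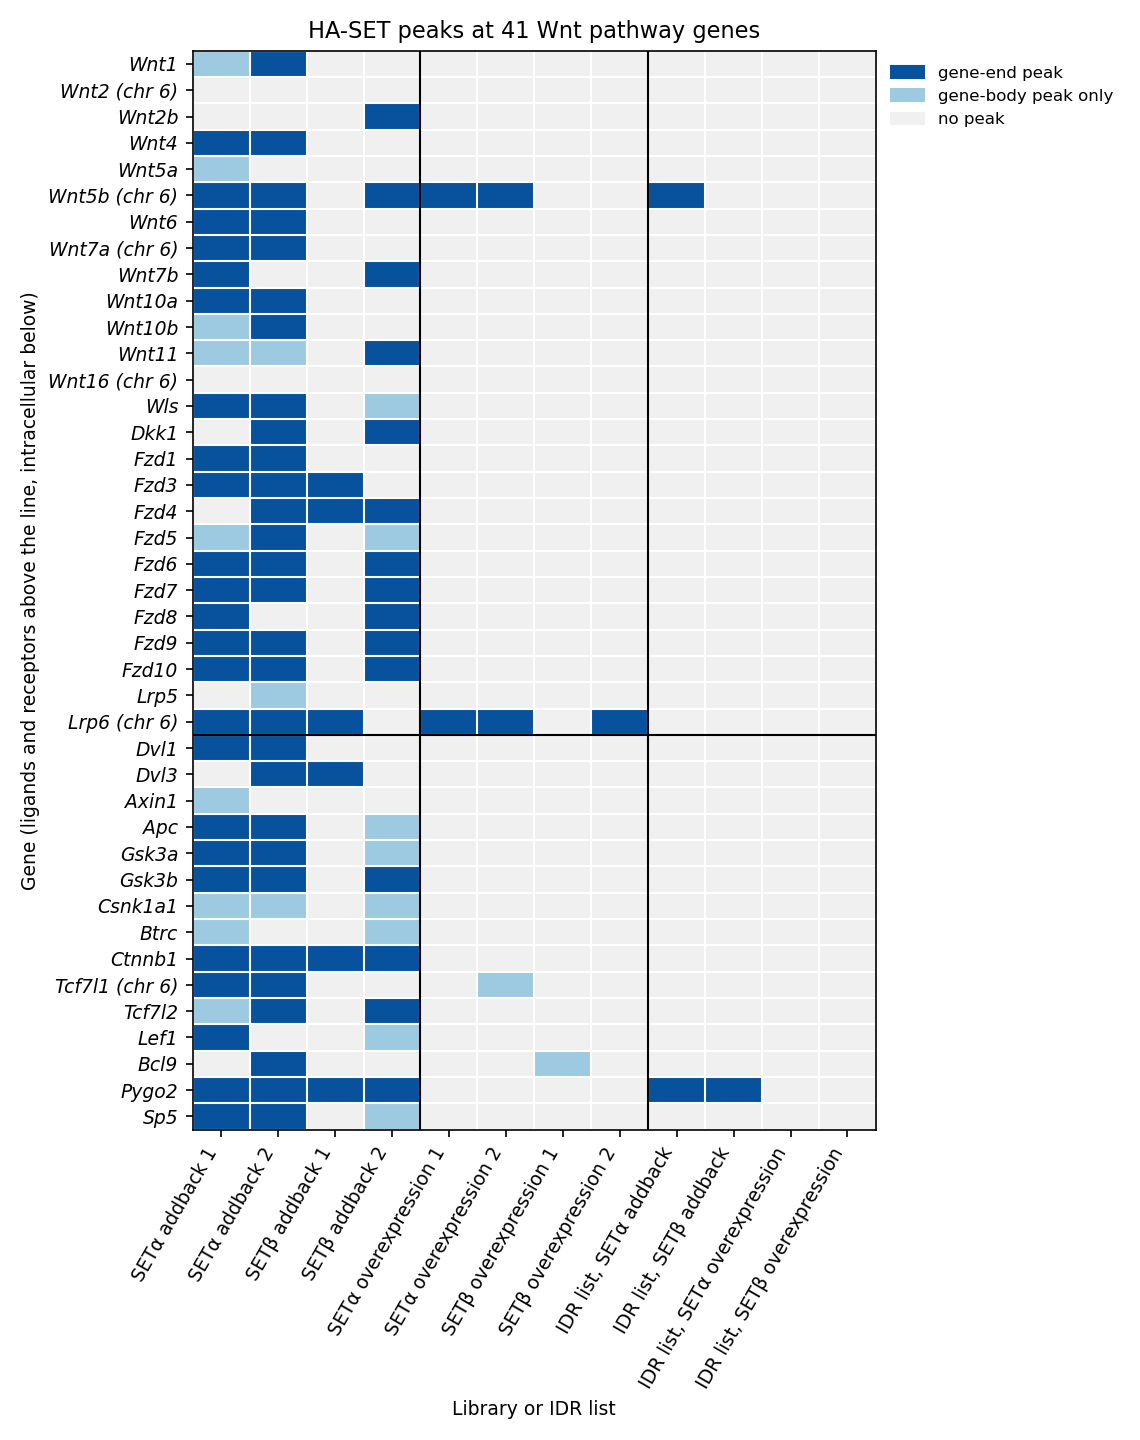
Peaks at the 41 pathway genes (rows, ligands and receptors above the line and intracellular components below it; chromosome 6 genes marked) in 8 libraries and 4 IDR lists (columns). Dark cells are gene-end peaks, light blue cells gene-body peaks only and grey cells no peak; the overexpression columns are empty apart from Wnt5b, Lrp6, Tcf7l1 and Bcl9.

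Ligand genes had gene-end peaks in fewer libraries than Frizzled genes, with a median of 1 addback library against 3, a difference that was not tested. Of the 13 Wnt genes, 6 and 7 had such a peak in the SETα addback lists, and 0 and 4 in the SETβ addback lists. The ligand genes Wnt4, Wnt6, Wnt7a (chromosome 6) and Wnt10a had one in both SETα replicates and neither SETβ replicate. Wnt1 and Wnt10b had one in SETα replicate 2 and a gene-body peak in replicate 1, and Wnt7b had one in SETα replicate 1 and SETβ replicate 2. Wnt2b and Wnt11 had a gene-end peak in SETβ replicate 2 alone, with −log10 p of 3.39 in each case, and Wnt11 had gene-body peaks in both SETα lists. Wnt5a, known for β-catenin-independent signalling, had 1 gene-body peak in SETα replicate 1. The gene-end peaks of Wnt6 lay at its far end, with the strongest summit 1085 bp inside it in SETα replicate 1 (−log10 p 3.51) and 1151 bp inside it in replicate 2 (−log10 p 10.0). SETα replicate 1 also had a gene-body peak at Wnt6 (−log10 p 2.94).

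Wls, the membrane protein that carries Wnt ligands to the cell surface, had a peak at its start in SETα replicate 1 (−log10 p 4.12) and at its far end in replicate 2 (−log10 p 9.67, fold enrichment 1.49). These lie at opposite ends of a gene of 99017 bp, so the replicates did not hit the same place. Dkk1, a secreted inhibitor that binds Lrp co-receptors, had a start peak in SETα replicate 2 (−log10 p 4.2) and SETβ replicate 2 (−log10 p 2.83).

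The Frizzled receptors, which bind the ligands, were hit in many libraries. All 9 had a gene-end peak in at least 1 addback library and 6 of them in 3, against 1 of the 13 ligands. Of all protein-coding genes, 47.5% had one in at least 1 addback library and 12.4% in at least 3. In SETα addback 7 and 8 of the 9 had a gene-end peak, and in SETβ addback 2 and 6. Each of the 6 rested on a SETβ peak that missed a q of at most 0.05. Its −log10 q was 0.865 at Fzd3 in replicate 1. In replicate 2 it was 0.0916 at Fzd4 and Fzd6, 0.416 at Fzd7 and Fzd9 and 0.844 at Fzd10. At that threshold none of the 6 had 3 libraries. The Frizzled genes are short, with a median of 4809 bp against 17397 bp for all protein-coding genes. The gene-end windows have the same size at every gene and leave little gene body in a short one. The part of gene length in these counts was not tested.

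Fzd3 had −log10 p of 6.88 and 6.5 with SETα addback and 4.7 in SETβ replicate 1. Fzd4 lacked a peak in SETα replicate 1, had 8.2 in replicate 2, and had 5.69 and 3.32 with SETβ addback. In Fzd4 the peak of SETα replicate 2 covered 136 bases of the promoter shown above, with its summit 10 bp downstream of the start. This peak and that of SETβ replicate 1 also lay within 1 kb of an end of Tmem135. Fzd3 thus lacked a gene-end peak in SETβ replicate 2 and Fzd4 in SETα replicate 1.

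The other Frizzled genes with 3 addback libraries missed SETβ replicate 1, the shortest addback list. Fzd6 had −log10 p of 4.12 and 5.7 with SETα and 3.39 in SETβ replicate 2, and Fzd7 had 4.77, 5.33 and 3.98. Fzd9 had 5.44, 5.7 and 3.98, and Fzd10 had 6.88, 5.7 and 4.61. The median −log10 p of all peaks was 4.4 and 4.93 in the SETα lists and 3.98 in SETβ replicate 2, so the values of Fzd7 and Fzd9 in that SETβ list were at its median. Fzd1 had gene-end peaks in both SETα lists, Fzd8 in SETα replicate 1 and SETβ replicate 2, and Fzd5 in SETα replicate 2 alone, at its far end. Peaks of Fzd10 upstream of its start also lay within 1 kb of an end of Fzd10os, and those of Fzd6 in the SETα lists within 1 kb of Gm26704. Fzd6 in SETβ replicate 2 was counted narrowly, with the peak edge 993 bp from the gene.

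**Figure D3:**
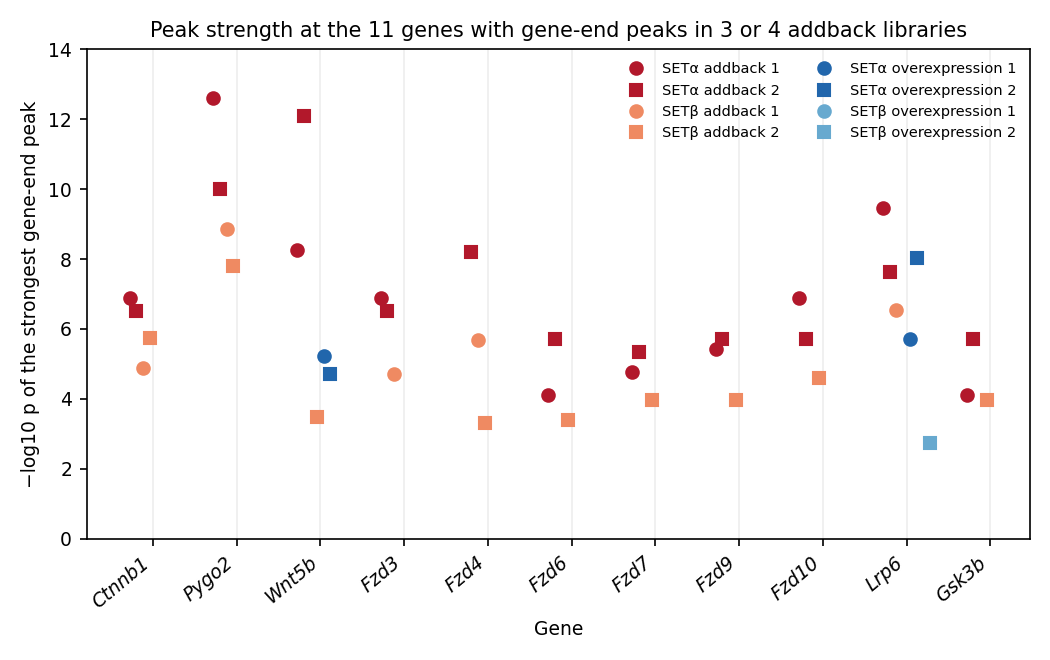
Strongest gene-end peak (y axis, −log10 p as deposited, linear scale from 0) at the 11 members with such a peak in at least 3 addback libraries (x axis), with 1 point per library (circles replicate 1, squares replicate 2) and no point where no peak was listed. Pygo2 lies highest in both SETβ addback lists, at 8.87 and 7.79, and overexpression points occur at Wnt5b and Lrp6 alone.

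The co-receptors differed. Lrp5 had 1 gene-body peak in SETα addback replicate 2 and nothing else. Lrp6, on chromosome 6, had gene-end peaks in SETα addback with −log10 p of 9.47 and 7.62 and in SETβ addback replicate 1 with 6.53, all at its upper end, at position 134566913. It also had gene-end peaks of 5.72 and 8.02 with SETα overexpression and of 2.74 in SETβ overexpression replicate 2. SETβ addback replicate 2 and SETβ overexpression replicate 1 had none, so addback and overexpression overlapped at this gene.

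Of the 15 intracellular components, 9 and 11 had a gene-end peak in the SETα addback lists and 3 and 4 in the SETβ addback lists. Of the 26 ligand and receptor genes, 15 and 18 had one with SETα and 3 and 11 with SETβ. In SETβ addback replicate 2, 6 of 15 intracellular genes had gene-body peaks only, against 2 of 26. Intracellular members are longer, with a median of 64595 bp against 18284 bp, and the part of length in this was not tested. Over all 41 members, gene-body peaks only were found at 9 and 3 in SETα addback (12.2% and 9.19% of all genes) and at 0 and 8 in SETβ addback (2.27% and 9.9%). With overexpression they were found at 0 and 1 with SETα and at 1 and 0 with SETβ, where all genes gave 1.53%, 2.76%, 1.27% and 2.88%.

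Among Dishevelled genes, which relay the signal from Frizzled, Dvl1 had start peaks in both SETα addback lists and neither SETβ list. Dvl3 had start peaks in SETα replicate 2 (−log10 p 3.1) and SETβ replicate 1 (−log10 p 7.99), and none in the other addback lists. The Dvl3 peaks lay within 1 kb of an end of Gm16618 as well.

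The 6 destruction complex genes were split. Gsk3b, a kinase that phosphorylates β-catenin, had start peaks with −log10 p of 4.12 and 5.7 in SETα addback and of 3.98 in SETβ replicate 2, each also within 1 kb of an end of BC031361. Its paralogue Gsk3a and the scaffold gene Apc had gene-end peaks in both SETα lists, with gene-body peaks only in SETβ replicate 2. Axin1, the other scaffold, had 2 gene-body peaks in SETα replicate 1 alone. Csnk1a1, which encodes the priming kinase, had gene-body peaks in 3 addback lists, of which the nearest in SETα replicate 2 and SETβ replicate 2 began 1114 and 1150 bp from a gene end, just outside the window. Btrc had a gene-body peak in 1 list of each isoform.

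Ctnnb1, the β-catenin gene (chromosome 9, 120933400 to 120960507), had a start peak in every addback library. The −log10 p was 6.88 and 6.5 with SETα and 4.88 and 5.75 with SETβ, with fold enrichments of 3.98, 4.23, 3.27 and 3.53. The median fold enrichment of all peaks was 2.99, 3.57, 3.19 and 2.91 in the same lists, below the Ctnnb1 value in each. By −log10 p, the peak in SETβ replicate 1 lay below its list's median of 5.05, at rank 1526 of 2518. The 4 summits lay within 85 bp of each other, at −44, −73, 7 and 12 bp from the listed start, and the peaks covered 219, 257, 268 and 197 bases of the promoter shown above. No other gene end lay within 1 kb of these start peaks. SETα replicate 1 listed a further peak at the far end of Ctnnb1 with the same −log10 p, and each SETα replicate listed a gene-body peak. None of these peaks was in an IDR list.

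Pygo2, whose protein reads methylated histone H3 and joins Bcl9 on β-catenin, had the strongest gene-end peak of the 41 members in each SETβ addback list. It lies on chromosome 3 from 89430114 to 89435131. The −log10 p was 12.6 and 10.0 in the SETα addback lists and 8.87 and 7.79 in those of SETβ, at ranks 589, 772, 532 and 619 of their lists. The fold enrichment was 5.73, 5.53, 3.81 and 3.5. It was the only member in both addback IDR lists, at rank 430 of 530 with SETα and 456 of 485 with SETβ. The peak reached the promoter shown above in 3 of the 4 libraries, with summits 251, 417 and 180 bp downstream of that start in SETα replicates 1 and 2 and SETβ replicate 1. All 4 peaks lay within 1 kb of an end of Shc1 as well, and position does not assign them to 1 of these genes.

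Tcf7l1 (chromosome 6), known as a repressor of pluripotency genes in embryonic stem cells, had start peaks in both SETα addback lists, with −log10 p of 6.88 and 4.93, and in no SETβ list. Tcf7l2 had start peaks in SETα replicate 2 (5.06) and SETβ replicate 2 (4.31) and gene-body peaks in SETα replicate 1, the nearest of which began 1158 bp from the gene. Lef1 had a start peak in SETα replicate 1 (7.63) and a gene-body peak in SETβ replicate 2. Bcl9 had a peak at its outer 5′ end in SETα replicate 2 (4.93), 70506 bp from its only listed start, and a gene-body peak in SETβ overexpression replicate 1 (4.0). Sp5, a direct target gene of the pathway, had peaks at its far end in both SETα lists, with −log10 p of 2.95 and 6.1, whose edges lay 873 and 837 bp from that end.

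Between isoforms, 11 members had a gene-end peak in both SETα addback lists and neither SETβ addback list, against 10.1% of all genes. They were Wnt4, Wnt6, Wnt7a, Wnt10a, Wls, Fzd1, Dvl1, Apc, Gsk3a, Tcf7l1 and Sp5. The reverse was found at none of the 41 and at 0.187% of all genes. A gene-end peak in both SETα addback lists was itself commoner among members, at 21 of 41 (51.2%) against 22% of all genes. Of these 21 members, 11 lacked one in both SETβ lists, a share close to the 1944 of 4226 among all genes. The SETα mean exceeded the SETβ mean by 16 members, against a spread between replicates of 5.15, and both SETα counts lay above both SETβ counts. The same direction held over all protein-coding genes, with 34.3% and 31.8% in the SETα lists against 8.41% and 18.4% in those of SETβ. With 2 libraries against 2, an exact permutation test has 6 arrangements and cannot give a two-sided p below 0.333. Among the strongest 1343 peaks of each library the difference was 1 member, and the counts of 3 and 4 against 4 and 1 overlapped. The lists differ widely in length, and the part of depth in the difference was not tested.

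Few members were in the IDR lists, at shares near those of all genes. The SETα addback list had gene-end peaks at Pygo2 and Wnt5b, 2 of 41 against 2.78% of all genes, and the SETβ addback list at Pygo2, 1 of 41 against 2.62%. Neither overexpression IDR list had a peak at a member, and 0.182% of all genes had one in either list. The Wnt5b IDR peaks were at the start (−log10 p 8.27, rank 518 of 530) and in the gene body (11.9, rank 380). The gene-body peak lies within 1 kb of an end of Fbxl14, a gene inside the span listed for Wnt5b.

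Members with SETα overexpression peaks lay on chromosome 6 alone. Of 93 and 109 member peaks in these libraries, 93 and 108 were at Wnt5b or Lrp6, both inside the segment from 118 to 136 Mb. Wnt5b, which spans 119432531 to 119544824, held 52 and 58 peaks, and Lrp6, from 134446476 to 134566913, held 41 and 50. That is 45.5 and 50.7 peaks per 100 kb at Wnt5b and 33.5 and 40.8 at Lrp6, against 18.5 and 26.5 over the whole segment. The segment value includes stretches between genes, and densities at its other genes were not computed. The peaks were spread along both genes, and 5 and 2 of those at Wnt5b and 2 and 4 of those at Lrp6 were gene-end peaks. Their median −log10 p was 3.6 and 4.03 at Wnt5b and 3.8 and 4.24 at Lrp6, close to the 3.8 and 4.15 of all segment peaks.

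In the same segment 65.9% and 79.5% of 258 coding genes had a gene-end peak with SETα overexpression, against 0.1% and 0.843% of coding genes elsewhere, and Wnt5b and Lrp6 share their status with most coding genes of the segment. The only member of the 41 with gene-end peaks in both SETα and neither SETβ overexpression list was Wnt5b, against 0.691% of all genes. Without chromosome 6, none of the 35 remaining members had a gene-end peak in any overexpression library. The shares of all genes there were 0.105% and 0.867% with SETα overexpression and 0.315% and 1.79% with SETβ overexpression, too low for a count of 0 in 35 to stand apart. Tcf7l1, at 72626371 to 72789045 outside the segment, had 1 gene-body peak in SETα overexpression replicate 2 (−log10 p 2.69). Wnt2, Wnt7a and Wnt16 had none.

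In addback the pattern at these genes was different. Wnt5b had 9 and 8 peaks with SETα addback, 0 and 1 with SETβ addback, and none with SETβ overexpression. Its start peak had −log10 p of 8.27 and 12.1 with SETα addback and 3.49 in SETβ addback replicate 2. In SETα overexpression the strongest gene-end peak was at the start in replicate 1 (5.23) and at the far end in replicate 2 (4.7), where the strongest start peak had 3.48. Replicate 2 also had a peak of 7.09 that overlapped the strongest start peak of each of the 3 addback libraries but ended outside the 1 kb window, and it was counted as a gene-body peak. Both SETα addback lists also had peaks around Fbxl14, the strongest with −log10 p of 11.9 and 15.9. The start peaks lay within 1 kb of an end of Gm52875. The promoter shown above was reached by a weaker peak of SETα addback replicate 2 alone, over 59 bases. In SETα addback the segment held 3.1 and 3.28 peaks per 100 kb, against 7.87 and 7 at Wnt5b and 1.63 and 2.45 at Lrp6. Of the segment's coding genes, 41.5% had a gene-end peak in each SETα addback replicate, against 34.2% and 31.7% elsewhere.

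**Figure D4:**
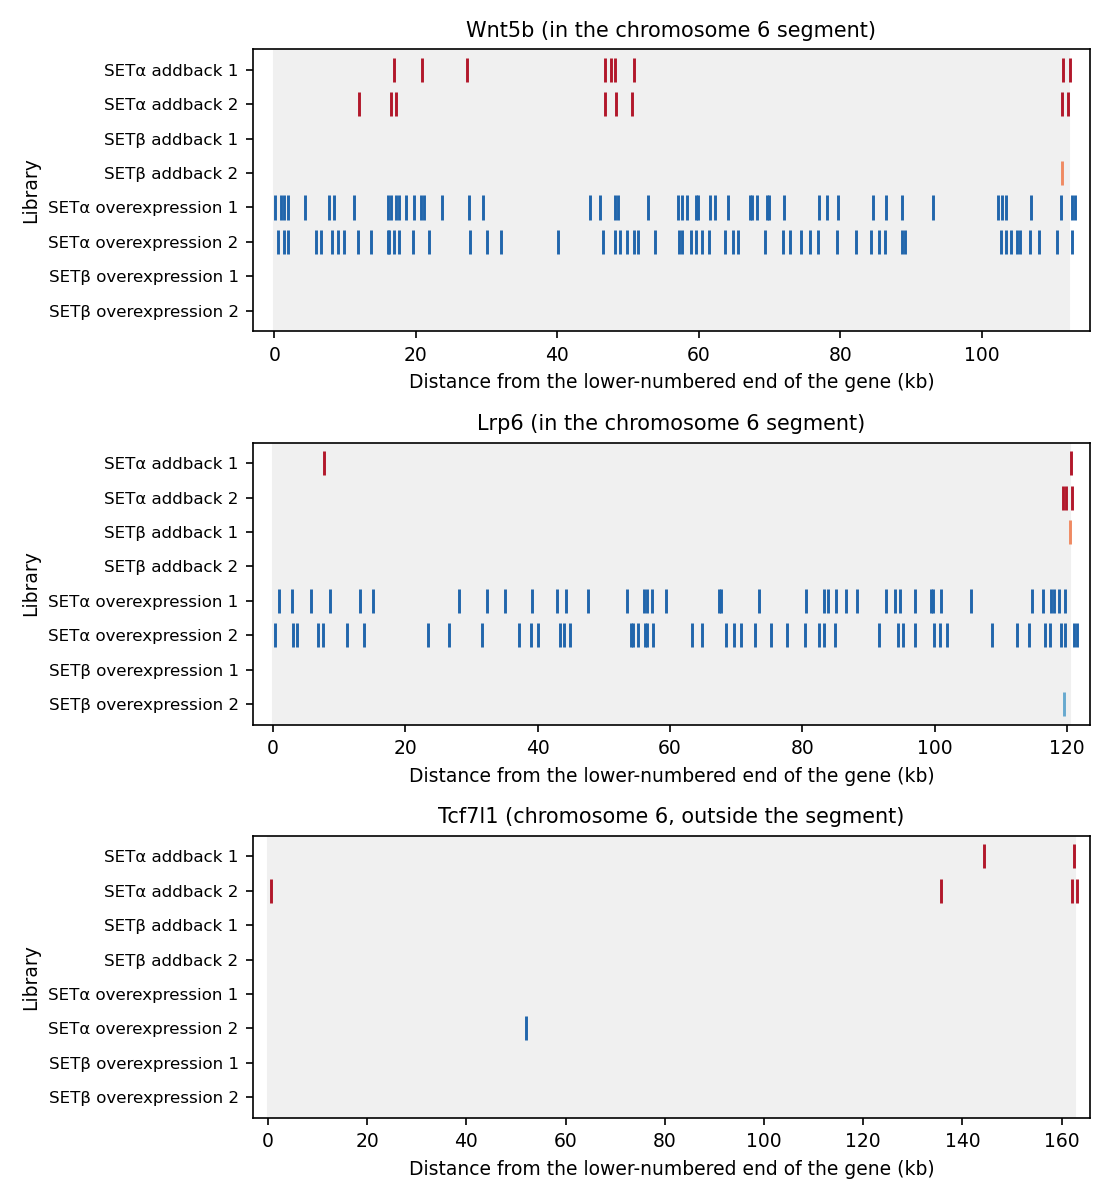
Summits of all peaks (vertical ticks) along Wnt5b, Lrp6 and Tcf7l1 in 8 libraries (rows), against the distance from the lower-numbered end of the gene (x axis, kb; grey marks the gene). SETα overexpression ticks (dark blue) fill Wnt5b with 52 and 58 peaks and Lrp6 with 41 and 50, while Tcf7l1, outside the segment, has 1.

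A further 77 pathway genes were listed, of which 21 lie on chromosomes 8 and 11 and were not analysed here. Of the remaining 56, 35 and 29 had a gene-end peak in SETα addback (62.5% and 51.8%) and 4 and 15 in SETβ addback (7.14% and 26.8%). With overexpression 0, 0, 0 and 1 had one. These shares were above those of all genes in 3 of the 4 addback lists, and below in SETβ replicate 1. Only Ep300, a histone acetyltransferase and β-catenin co-activator, had a gene-end peak in all 4 addback lists, 1 of 56 genes against 5.15% of all genes. Its −log10 p was 9.22 and 6.5 with SETα and 3.65 and 3.38 with SETβ. It was also the single overexpression case, with 3.04 in SETβ overexpression replicate 2. None of the 56 had an IDR peak, where 3.54% of all genes had one in an addback list and 0.182% in an overexpression list.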

How the data were processed

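HA ChIP-seq peak lists of 8 libraries, 2 replicates in each of 4 groups, were read as deposited. The submitters' processing notes name Bowtie2, MACS2, deepTools and the builds GRCm38 and mm10, without versions or parameters. The control library is not given in the sources used here. Per library, the deposited lists give the authors' score (the integer part of 10 times the −log10 p), a linear fold ratio of signal over local background, a −log10 p-value and a −log10 q-value. The 4 deposited IDR lists, 1 per group, give the authors' scaled IDR score and the smaller −log10 p of both replicates. There is 1 peak list per library.

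Gene positions came from the RefSeq table of GRCm38.p6. Chromosomes 8 and 11 and mitochondrial peaks were not analysed. A peak had to share at least 1 bp with a window. The exact permutation test of gene-end presence used all 9291 protein-coding genes with a gene-end peak in at least 1 library, with Benjamini-Hochberg adjustment. On simulated lists of each library's size over 19235 genes, the overlap step was tested and found 200 of 200 planted gene-end peaks in each. Scripts used Python 3.11.15, numpy 2.4.6, pandas 2.3.3 and matplotlib 3.10.9.

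The members and the further pathway list were chosen with earlier results of these data known, as were the tests. Values are given for each library for members with an IDR peak, with a gene-end peak in at least 3 addback libraries, or on chromosome 6 with an overexpression peak. Other members are given by count and position, and the single −log10 p values printed for Wnt2b, Wnt11, Wnt6, Wls, Dkk1, Dvl3, Tcf7l2, Lef1, Bcl9 and Sp5 were chosen after they were seen. Further pathway genes are named for an IDR peak or for a gene-end peak in all 4 addback libraries. Promoters are printed for the 5 members with a start peak in the most libraries. Motifs were chosen after the data were seen. Alternatives covered peak strength, list length, window, summits, chromosome 6, gene start only and each replicate left out.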

Additional observations from a re-analysis of the deposited data

How the results depend on the processing

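The excess of addback over overexpression, 17.2 members with a gene-end peak, stayed positive in all 16 alternatives, from 1.5 to 20. The same direction held over all protein-coding genes, with 8.41% to 34.3% in the addback lists and 0.338% to 1.9% in the overexpression lists. It is thus not particular to the members. It was 10.8 with a q of at most 0.05, 1.5 at a −log10 q of at least 5, 2.25 among the strongest 1343 peaks of each library, 10 with a window of 250 bp and 12.2 at the gene start only, where 29 members have a strand. The SETα excess in SET KO, 16 members, was 3 at a −log10 q of at least 5, 1 among the strongest 1343 peaks, 9.5 with a window of 250 bp and 9.5 at the gene start only. The SETα excess in overexpression, 1.5 members, was 0.5 with a q of at most 0.05, 0 at a −log10 q of at least 5 and 0 without chromosome 6. Stricter thresholds, shorter lists, narrower windows and the gene start alone leave fewer peaks or genes to count. Leaving out 1 replicate gave 15 to 19.5, 11.5 to 20.5 and 1 to 2 for the same 3 differences. This could not change a sign, since in each comparison every count of the higher side lay above every count of the lower. The lowest value in SET KO came without SETβ addback replicate 1 and the highest without SETβ addback replicate 2.

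The exact permutation test of single genes called 0 genes in every alternative, including each replicate left out (0 to 0), because its smallest p is 0.0556. With the replicate number as a block it also called 0, with a smallest p of 0.125 in 16 arrangements. The labels do not say whether the replicate numbers pair libraries of different groups. Differences between replicates 1 and 2 over all genes correlated by −0.0018 to 0.0281 between groups. Few genes are listed in overexpression, so low correlations cannot exclude a pairing. Read depth was not measured here. With lists of 1343 to 22176 peaks, a gene without a peak is a gene not listed, which does not show that SET was absent.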
